A study of Bos taurus with 6 samples.

Results

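NKG7 and GZMA, a pair of genes of the cytotoxic granules of natural killer (NK) cells and cytotoxic T cells, were the 2 rows chosen by name from the 2040 gene rows of a comparison of longissimus dorsi muscle between cattle breeds. The rule for the choice uses gene names and no measured value, but it was made with earlier results of these data known. Every row of the table had also been picked by the authors beforehand for a difference between the breeds. The smallest absolute log2 fold change in the authors' deposited table was 1.00 and the largest adjusted p was 0.0492. That both genes separate the breeds below follows from this selection and is not independent evidence. The study, whose title names intramuscular fat content, sequenced RNA from the long muscle of the back, taken at ribs 12 and 13 from 18-month-old Angus cattle (3 libraries) and Chinese Simmental cattle (3 libraries). No treatment, sorting of cells or dissection of a cell type is given in the labels, so both breeds differ by breed alone as far as the labels say. Whether the 3 libraries of a breed came from separate animals is not stated, and p-values measure only the spread between these libraries, which may be technical.

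Cytotoxic lymphocytes kill infected or transformed cells by releasing secretory lysosomes, the lytic granules, toward the target. Perforin forms pores in the membrane of the target, and granzymes, serine proteases stored in the same granules on a serglycin matrix, enter through them and cleave proteins inside. GZMA encodes granzyme A, a tryptase-like granzyme that cuts after basic residues. NKG7 encodes a multi-pass membrane protein of the granule in the PMP-22 and claudin family, and in mice it is needed for full degranulation. Both are genes of lymphocytes and not of the muscle fibre, and where in or around the muscle such cells lay was not tested.

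The deposited counts of these libraries were divided by the authors' size factors, which ran from 0.801 to 1.17 in Angus and from 0.951 to 1.09 in Chinese Simmental, and the result is called a scaled count. Counts over the listed genes summed to between 12010803 and 15699184 in Angus and to between 12799174 and 28883725 in Chinese Simmental. These sums cover listed genes only, and full sequencing depth is unknown. Of the 16 defining genes of skeletal muscle that were looked up, 1 was listed, the fast troponin T gene TNNT3, and the other 15 were not analysed here. TNNT3 ranged from 3.89 to 10.7 FPKM (fragments scaled for gene length and library total) in Angus and from 0.706 to 2.87 FPKM in Chinese Simmental. On the same per-length scale NKG7 lay above TNNT3 in all 6 libraries. Counts over FPKM should follow gene length, but relative to NKG7 they were 20.3 for TYROBP and 0.0744 for LAMP2. KIR2DL5A stood at 23.0, NCR1 at 20.4, WC1-10 at 8.09 and CTSW at 7.32. Comparisons of FPKM between genes are therefore uncertain. Whether counts and FPKM of such rows cover the same transcript was not tested, so their scaled counts below are uncertain measures of the named gene.

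NKG7 was lower in Angus, and every Angus library lay below every Chinese Simmental library. Its raw counts were 2417, 1589 and 1402 in Angus replicates 1 to 3, against 3029, 5646 and 9793 in Chinese Simmental replicates 1 to 3. As scaled counts these became 2069, 1984 and 1380.2 in Angus, against 3185, 5174 and 9508 in Chinese Simmental. The Angus libraries stood close together, with replicate 3 lowest, whereas the Chinese Simmental libraries were spread over a 2.99-fold range with replicate 3 highest and replicate 1 nearest to Angus. The lowest Chinese Simmental library was 1.54 times the highest Angus library. The mean was 1811 ± 376 in Angus and 5956 ± 3233 in Chinese Simmental (SD, n = 3 each), a 3.29-fold lower level in Angus. In edgeR's quasi-likelihood test, fitted over all listed genes, the log2 fold change of Angus minus Chinese Simmental was -1.72 ± 0.46 (standard error) with a Benjamini-Hochberg adjusted p of 0.0094. The adjustment covered only genes that the authors had already selected for a difference, so its value is no false discovery rate over all genes. This holds for every edgeR call below. The authors' deposited table gives 1.62 for NKG7 in the opposite direction, Chinese Simmental over Angus, with an adjusted p of 0.000519.

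On the FPKM scale NKG7 stood at 39.5, 31.0 and 20.7 in Angus and at 56.1, 84.0 and 132.9 in Chinese Simmental. The order of the libraries within each breed was the same as by scaled counts, and the breeds did not overlap. The mean was 30.4 ± 9.44 FPKM in Angus and 91.0 ± 38.9 FPKM in Chinese Simmental (SD, n = 3 each). Among the listed genes of the same library, the FPKM of NKG7 lay between percentiles 67.8 and 75.9 in Angus and between 72.1 and 80.5 in Chinese Simmental. These ranks, and those of GZMA below, share the uncertainty of FPKM between genes given above.

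GZMA was also lower in Angus without overlap, and its FPKM was below that of NKG7 in every library. Its raw counts were 522, 390 and 248 in Angus replicates 1 to 3, against 638, 1860 and 790 in Chinese Simmental replicates 1 to 3. As scaled counts these became 447, 487 and 244 in Angus, against 671, 1705 and 767 in Chinese Simmental. Replicate 2 of Chinese Simmental stood well above the other 2 libraries of its breed, which lay close together, and Angus replicate 3 was again the lowest library. The lowest Chinese Simmental library was 1.38 times the highest Angus library. The mean was 393 ± 130 in Angus and 1047 ± 571 in Chinese Simmental (SD, n = 3 each), 2.67-fold lower in Angus. The log2 fold change was -1.42 ± 0.50 with an adjusted p of 0.0230 in the same edgeR test, and the authors' deposited table gives 1.33 for Chinese Simmental over Angus with an adjusted p of 0.0141. The call for GZMA was lost when Chinese Simmental replicate 2 was left out (-0.87, adjusted p = 0.117 by edgeR) or Angus replicate 3 (-1.17, adjusted p = 0.0807 by edgeR). The call for NKG7 was kept when any 1 library was left out, with values between -2.02 and -1.21.

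In FPKM, GZMA stood at 5.78, 5.73 and 2.84 in Angus and at 9.39, 20.6 and 8.16 in Chinese Simmental. The mean was 4.78 ± 1.68 FPKM in Angus and 12.7 ± 6.87 FPKM in Chinese Simmental (SD, n = 3 each). The lowest Chinese Simmental library was here replicate 3 and not replicate 1. The FPKM of GZMA lay between percentiles 38.4 and 50.6 of the listed genes in Angus and between 40.9 and 55.5 in Chinese Simmental. RefSeq assembly ARS-UCD2.0 places a further granzyme A gene, written gzmA, directly beside GZMA, so reads of near-identical sequence may have been split or lost in the counting, and the level of GZMA is uncertain.

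**Figure D1:**
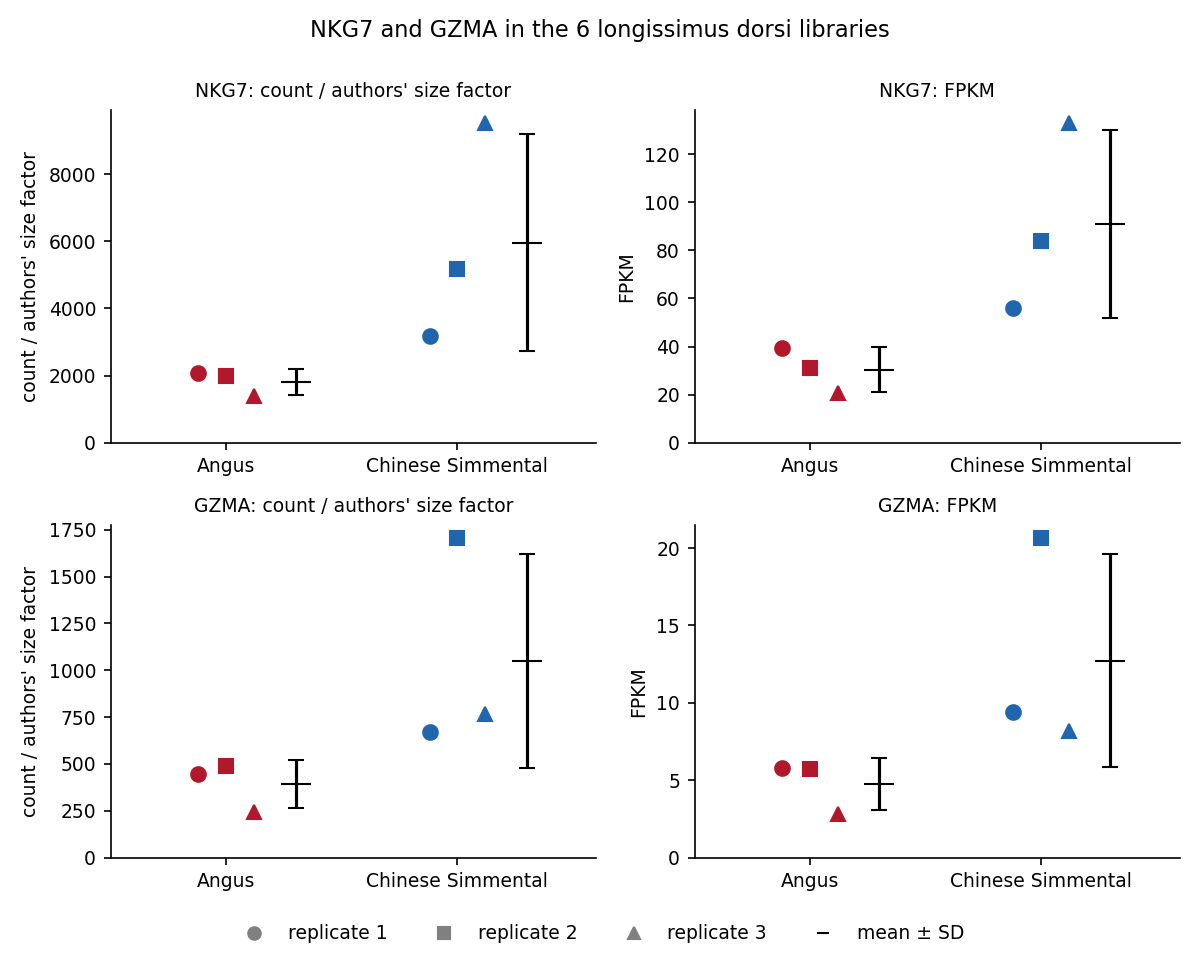
Scaled counts (left) and FPKM (right) of NKG7 (top) and GZMA (bottom) in each library, Angus left and Chinese Simmental right, with mean ± SD over 3 libraries in black. NKG7 peaks in Chinese Simmental replicate 3 at 9508 scaled counts and GZMA in replicate 2 at 1705, and no Angus library reaches a Chinese Simmental library in any panel.

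Both differences have to be read against the table they come from. Of the 1989 genes that passed the count filter, 1492 (75.0%) were called higher in Chinese Simmental and 495 (24.9%) higher in Angus. The breeds did not overlap in 90.3% of the 2040 rows, with all Angus libraries above in 24.4% and all Chinese Simmental libraries above in 65.9%. The median log2 fold change over the tested genes was -1.57, so NKG7 lay just below that median and GZMA just above it. Over only the 1492 genes called higher in Chinese Simmental the median was -1.94, and both members were smaller in size. Among the genes called higher in Chinese Simmental, 59.5% had a larger difference than NKG7 and 74.3% a larger one than GZMA. Both genes were thus among the smaller differences of their direction. When scaling factors were computed over the listed genes themselves (TMM, a trimmed mean of log ratios), the median of all log2 fold changes moved by 1.36 toward Angus, NKG7 became -0.25 (adjusted p = 0.636 by edgeR) and GZMA -0.084 (adjusted p = 0.933 by edgeR). All listed genes were selected for a difference, and most lay in the same direction, so such factors centre the selected changes. Smaller values and lost calls under them follow from that selection and cannot decide whether the breeds differ. The deposited FPKM values gave -1.54 for NKG7 and -1.34 for GZMA with limma on log2(FPKM + 0.1), at adjusted p = 0.0169 and 0.0334. In bulk tissue, fewer cells of a type and less RNA per cell cannot be told apart.

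**Figure D2:**
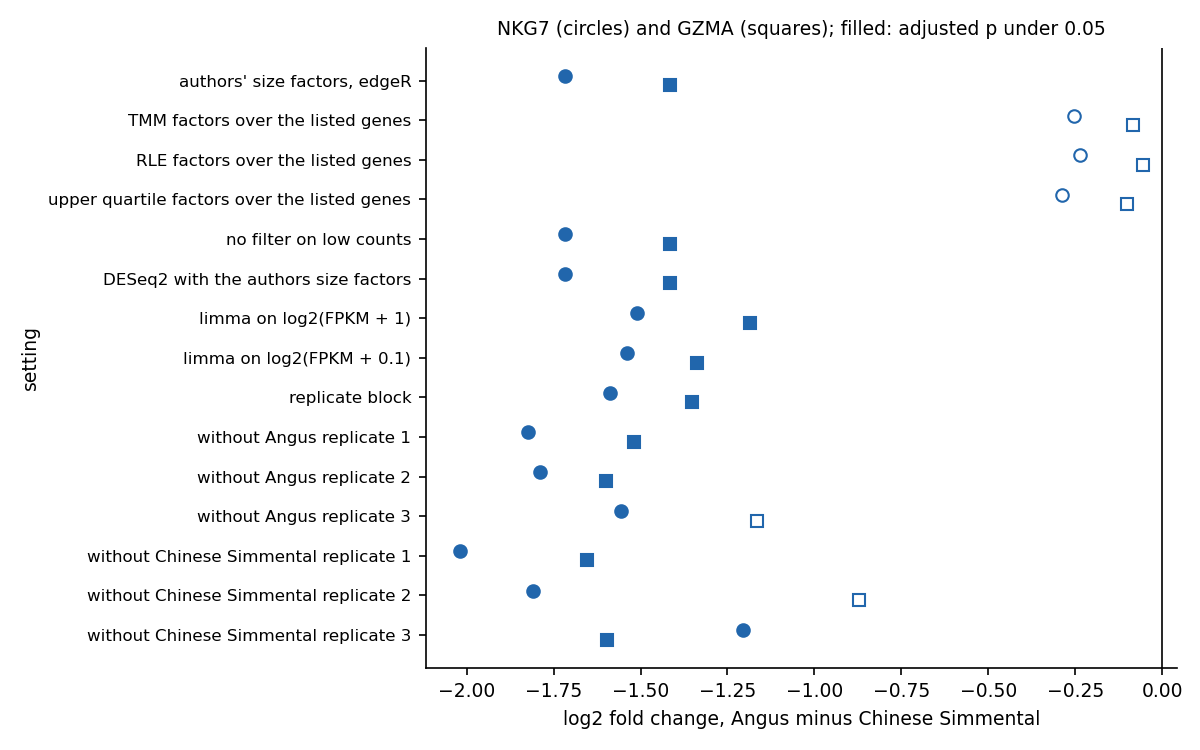
Log2 fold change (Angus minus Chinese Simmental) of NKG7 (circles) and GZMA (squares) under each processing setting, filled where the adjusted p was under 0.05. Every value lies below 0, and the values nearest 0, between -0.29 and -0.056, are those scaled over the listed genes.

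The ratio of NKG7 to GZMA within a library needs no scaling between libraries. It was 4.63, 4.07 and 5.65 counts of NKG7 per count of GZMA in Angus replicates 1 to 3, against 4.75, 3.04 and 12.4 in Chinese Simmental replicates 1 to 3. Chinese Simmental replicate 1 lay within the range of the Angus libraries, while the other Chinese Simmental libraries stood at opposite ends. The mean log2 ratio was 2.25 ± 0.24 in Angus and 2.49 ± 1.04 in Chinese Simmental (SD, n = 3 each), a difference of -0.25 with p = 0.8 in a two-sided exact permutation test, where 3 against 3 libraries cannot go below 0.1. The sign of that difference turned to 0.32 without Chinese Simmental replicate 3.

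As a share of the summed counts of both genes, NKG7 held 82.2% (95% Wilson interval 80.8 to 83.6), 80.3% (78.5 to 82.0) and 85.0% (83.2 to 86.6) in Angus. In Chinese Simmental it held 82.6% (81.3 to 83.8), 75.2% (74.2 to 76.2) and 92.5% (92.0 to 93.0). These intervals cover counting error only. The intervals of Chinese Simmental replicates 2 and 3 overlap with no other library, and those of Angus replicates 2 and 3 do not overlap with each other.

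**Figure D3:**
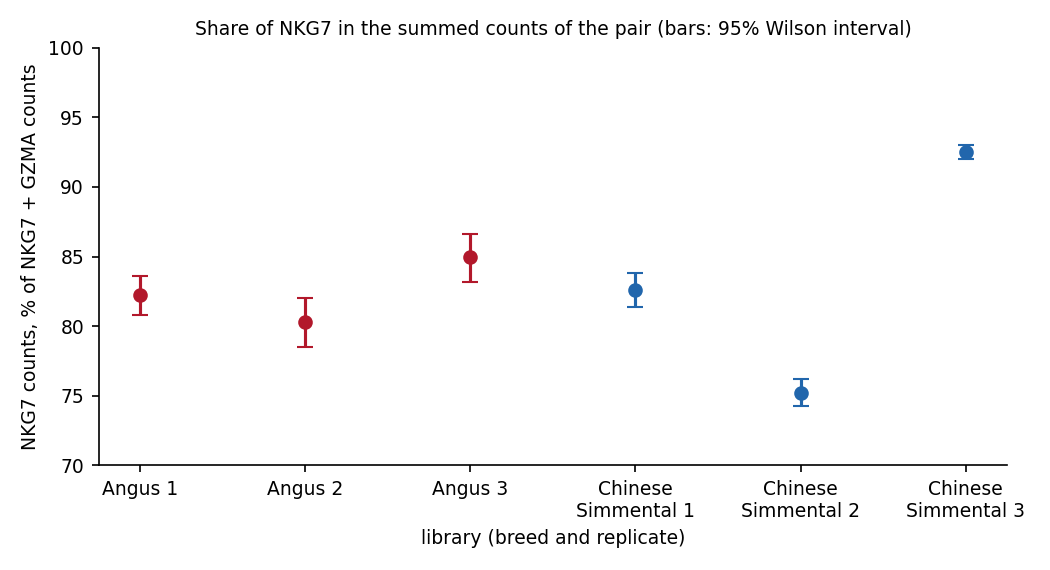
NKG7 counts as a percentage of NKG7 plus GZMA counts in each library, Angus left and Chinese Simmental right, with 95% Wilson intervals for counting error; the axis starts at 70%. The 3 Angus libraries and Chinese Simmental replicate 1 sit between 80.3% and 85.0%, with Chinese Simmental replicate 2 below them at 75.2% and replicate 3 above them at 92.5%.

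The other effectors of the granule were looked up by a list of 16 genes that included both members. Besides them, 4 were listed, and all 6 were called lower in Angus, as were 75.0% of all tested genes, with a median log2 fold change of -1.47 against -1.57 over all genes tested. Over only the genes called lower in Angus the median was larger in size, at -1.94. With TMM, RLE and upper quartile factors over the listed genes, 0 of the 6 were called. PRF1, the pore-forming perforin, stood at 6339, 6737 and 7478 scaled counts in Angus and at 8324, 19664 and 20523 in Chinese Simmental. The libraries of Chinese Simmental split into a low replicate 1 and a high replicate 2 and 3. In Angus replicate 3 was highest for PRF1, whereas it was lowest for NKG7 and GZMA. The log2 fold change of PRF1 was -1.24 ± 0.42. SRGN, the serglycin core protein that holds granule contents, was at -1.69 ± 0.47, and CTSC, the cathepsin that activates granzymes by removing their propeptide, at -1.52 ± 0.40. CTSW, a cathepsin of NK and cytotoxic T cells, was at -1.06 ± 0.43. Adjusted p-values of these 4 genes in edgeR's quasi-likelihood test lay between 0.00933 and 0.0336, and with TMM factors PRF1 and CTSW turned to 0.17 and 0.38. The count of 6 fell to 3 without Angus replicate 3 and to 3 without Chinese Simmental replicate 2. SRGN and CTSC are also expressed by myeloid cells, whose markers were lower in Angus too, and the part of those cells in the result was not tested. Other granzymes, among them GZMB, GZMK and GZMM, were not analysed here.

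Per count of PRF1, the 2 genes did not move alike in the libraries. NKG7 reached 0.326, 0.295 and 0.185 counts per PRF1 count in Angus, against 0.383, 0.263 and 0.463 in Chinese Simmental. GZMA reached 0.0705, 0.0723 and 0.0326 in Angus, against 0.0806, 0.0867 and 0.0374 in Chinese Simmental. In both breeds GZMA was lowest relative to PRF1 in the library called replicate 3, and the breeds overlapped in both ratios. The differences of the mean log2 ratios were -0.46 for NKG7 and -0.22 for GZMA, with p = 0.3 and p = 0.5 in two-sided exact permutation tests, and p = 0.75 for each after Benjamini-Hochberg adjustment over the 3 ratios computed. Within replicate numbers 1 to 3, GZMA to PRF1 was lower in Angus each time, by log2 differences of -0.19, -0.26 and -0.20 (p = 0.25 in an exact two-sided sign-flip test, the smallest that 3 pairs allow). The differences for NKG7 to PRF1 were -0.23, 0.16 and -1.33 (p = 0.5 in the same exact test). The labels state no pairing by replicate number, and these paired tests were added after the data were seen.

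**Figure D4:**
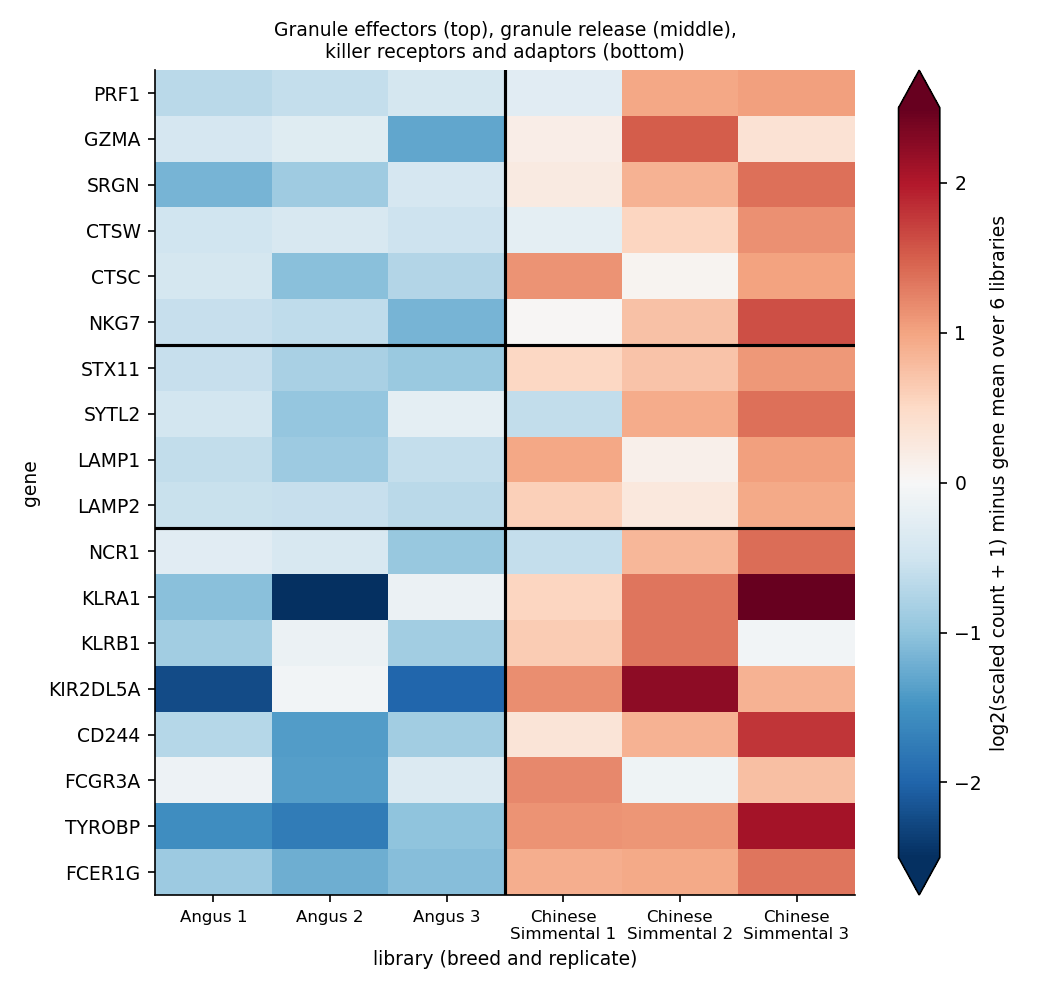
Log2(scaled count + 1) minus each gene's mean over the 6 libraries for the 18 listed granule and killer receptor genes, Angus columns left and Chinese Simmental columns right, red above and blue below the gene's mean, with the colours saturating at both ends. NKG7 is reddest in Chinese Simmental replicate 3, as are 13 of the 18 genes, and GZMA in replicate 2, as are 3 of the 18.

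Release of the granules depends on membrane traffic and fusion proteins. Of 13 such genes, 4 were listed and all 4 were called lower in Angus, as were 75.0% of all tested genes. Their median log2 fold change of -1.38 was smaller in size than the -1.57 over all tested genes and the -1.94 over those called lower in Angus. STX11, a syntaxin whose loss in people blocks degranulation of cytotoxic lymphocytes, stood at 1753 ± 229 scaled counts in Angus and 5143 ± 1024 in Chinese Simmental (SD, n = 3 each), a log2 fold change of -1.55 ± 0.35. LAMP1, the lysosomal membrane protein CD107a that appears at the surface of degranulating cells, was at -1.46 ± 0.40, and LAMP2, its relative, at -1.23 ± 0.34. SYTL2, a synaptotagmin-like protein of granule docking, was at -1.31 ± 0.50 with overlapping breeds, since Chinese Simmental replicate 1 stood at 2040 scaled counts and Angus replicate 3 at 2617. LAMP1 and LAMP2 belong to lysosomes of most cell types. With TMM factors LAMP2 and SYTL2 turned to 0.13 and 0.14.

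Surface receptors and their signalling adaptors are found on the cells that carry these granules, though not all are particular to them. Of 25 genes of this kind, 8 were listed and all 8 were called lower in Angus, beside 75.0% of all tested genes, with a median of -2.11 against -1.57. Over only the genes called lower in Angus the median was -1.94, near that of the 8. With TMM, RLE and upper quartile factors over the listed genes, 2, 1 and 2 of the 8 were called, and limma on log2(FPKM + 1) called 4. The adaptors TYROBP (DAP12) and FCER1G, which pass on the signal of activating receptors, had log2 fold changes of -2.90 ± 0.46 and -2.14 ± 0.37. Both adaptors are also abundant in myeloid cells, and the part of those cells in the calls of this list was not tested. CD244, the receptor 2B4 of NK and CD8 T cells, stood at 2566, 1610 and 2318 in Angus and at 5282, 7682 and 14549 in Chinese Simmental (-2.08 ± 0.46), with the libraries of Chinese Simmental in the order of NKG7. KIR2DL5A, an immunoglobulin-like killer receptor, stood at 18.0, 84.9 and 21.7 in Angus and at 199.8, 422 and 163 in Chinese Simmental (-2.67 ± 0.74), with replicate 2 highest in each breed. KLRB1, named after its values were seen, is the lectin-like receptor CD161, although the deposited protein annotation of the row names its relative KLRF1. It stood at 239.6, 398 and 238 in Angus and at 681, 1104 and 416 in Chinese Simmental. This row peaked in Chinese Simmental replicate 2, as did GZMA and KIR2DL5A, and its log2 fold change was -1.33 ± 0.49. The remaining listed receptors, also named after their values were seen, were NCR1, FCGR3A and KLRA1. NCR1 was at -1.27 ± 0.50 with overlapping breeds. FCGR3A was at -1.24 ± 0.48 and, unlike NKG7 and GZMA, highest in Chinese Simmental replicate 1. KLRB1, NCR1 and FCGR3A were thus smaller in size than the -1.57. KLRA1 was at -3.58 ± 1.17, with only 0 to 16.7 scaled counts in Angus. The count of 8 was 5 without Angus replicate 3 and 5 without Chinese Simmental replicate 3. Killer receptors form families of close relatives, so reads may be split among them and their levels are uncertain.

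Over the 18 listed genes of these 3 lists, Chinese Simmental replicate 3 was the highest library for 13 genes (72.2%), replicate 2 for 3 (16.7%) and replicate 1 for 2 (11.1%). Over all 1492 genes called higher in Chinese Simmental the shares were 65.3%, 18.6% and 16.1%. NKG7 followed the more common profile and GZMA the less common one. The lowest library of both was Angus replicate 3, which was the lowest for 7 of the 18 genes and for 14.7% of the genes called higher in Chinese Simmental.

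**Figure D5:**
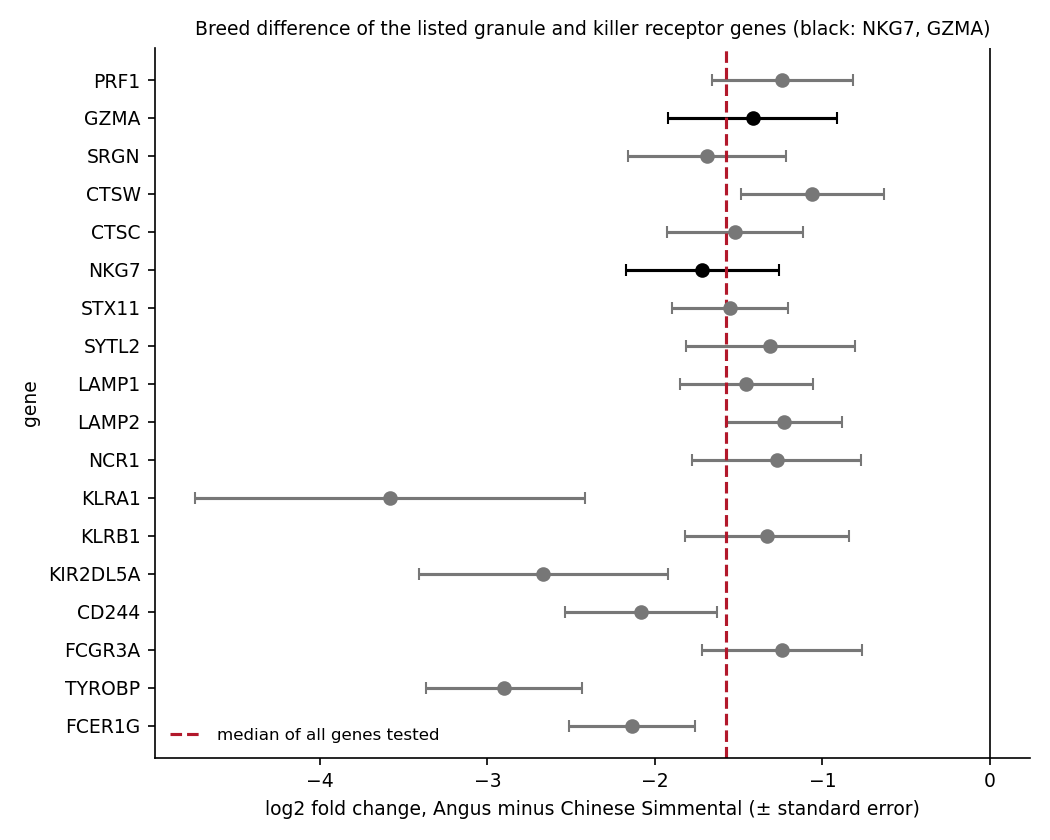
Log2 fold change (Angus minus Chinese Simmental) ± standard error of the 18 listed granule and killer receptor genes, NKG7 and GZMA in black, with the median of all genes tested as a dashed line at -1.57. All 18 lie below 0, and NKG7 at -1.72 and GZMA at -1.42 lie within 1 standard error of the dashed line.

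Further genes of cytotoxic lymphocytes, found through the deposited protein annotation or, for LAG3 and WC1-10, by name, were named after their values were seen. Rows annotated as NK-lysin, the bovine counterpart of the pore-forming granule peptide granulysin, were LOC100300483, LOC104968634 and LOC112448791, of which LOC104968634 and LOC112448791 had identical counts and are 1 measurement. LOC104968634 stood at 3738, 3454 and 6219 scaled counts in Angus and at 3451, 35158 and 43415 in Chinese Simmental. The breeds overlapped because Chinese Simmental replicate 1 lay at the level of Angus, and its log2 fold change was -2.61 ± 0.77. LOC100848575, annotated as the NK receptor chain CD94, was at -1.40 ± 0.50, again with overlapping breeds. CLECL1, annotated as the NK receptor KLRF1, was at -2.35 ± 0.38. LAG3, an inhibitory receptor of activated T and NK cells, stood at 1099.8, 1439 and 1448 in Angus and at 2046, 4585 and 2404 in Chinese Simmental (-1.18 ± 0.41), and turned to 0.15 with TMM factors. WC1-10, a member of the WC1 receptors of gamma delta T cells in cattle, stood at 51.4, 234 and 39.4 in Angus and at 659, 1634 and 671 in Chinese Simmental (-3.20 ± 0.77). LAG3 and WC1-10 were highest in Chinese Simmental replicate 2, as GZMA was, whereas LOC100848575 and all NK-lysin rows were highest in replicate 3 and CLECL1 in replicate 1.

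Markers of T cells as a whole gave little to set beside the pair. A list of 30 T cell genes, the CD3, CD4 and CD8 chains included, was looked up by exact symbol. Only the homing receptor CCR7 of naive and central memory cells was listed under its symbol. It was called higher in Angus, at 10369.6, 25063 and 28825 scaled counts in Angus and at 13553, 6749 and 5436 in Chinese Simmental, with overlapping breeds and a log2 fold change of 1.32 ± 0.51. Which cells expressed CCR7 was not tested. Of 16 listed B cell genes, 15 were also called higher in Angus, beside 24.9% of all tested genes. WC1-10, described above, is not an exact match to the symbol WC1 and was lower in Angus, at -3.20 ± 0.77. The other 29 symbols were not analysed here, so a number of T cells cannot be read from the table.

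Among regulators and cytokines of killer cells, the listed genes went in both directions. Which cells expressed them is not known from bulk RNA. The part of myeloid cells, whose markers were lower in Angus too, was not tested. Of 14 transcription factors 2 were listed and called, namely NFIL3, a factor of NK cell development in mice, at -3.85 ± 0.66, and PRDM1 (BLIMP1), a factor of effector lymphocytes and plasma cells, at -2.19 ± 0.62 with overlapping breeds. Of 31 cytokines, chemokines and their receptors 12 were listed, with 10 called lower in Angus and 2 higher, beside 75.0% and 24.9% of all tested genes, and a median of -1.92 against -1.57. IL15RA, which presents interleukin 15 to NK and CD8 T cells, stood at 155 ± 12.1 in Angus and 1543 ± 445 in Chinese Simmental (SD, n = 3 each), at -3.31 ± 0.42. IL18 and the chains of its receptor, IL18R1 and IL18RAP, were at -1.89 ± 0.46, -2.39 ± 0.68 and -3.76 ± 0.93, and the breeds overlapped for both receptor chains. The 2 genes higher in Angus, named after their values were seen, were the cytokine LTA at 1.24 ± 0.45 and XCL1, a chemokine that activated killer cells release, at 1.64 ± 0.56. XCL1 stood at 104, 107 and 76.8 in Angus and at 20.0, 37.6 and 35.0 in Chinese Simmental, opposite to NKG7 and GZMA. These calls come from edgeR's quasi-likelihood test, with adjusted p between 0.00217 and 0.0283 over all genes tested.

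Granzymes are held in check by serpins and act on a few known proteins. Of 13 such inhibitors and substrates, 2 were listed. SERPINB1, an inhibitor of neutrophil serine proteases and of human granzyme H, was at -1.49 ± 0.37. HMGB2, a chromatin protein that human granzyme A cleaves, was at -1.26 ± 0.46 and turned to 0.21 with TMM factors.

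Markers of neutrophils and of monocytes and macrophages were lower in Angus with the pair, those of B cells were mostly higher in Angus, and the part of these cells in the result was not tested. The counts that follow stand beside 75.0% of all tested genes called lower in Angus and 24.9% called higher. Of 16 neutrophil genes 11 were listed and all 11 were called lower in Angus, with a median of -4.06, and their summed scaled counts ran from 73151 to 147898 in Angus and from 667709 to 1192010 in Chinese Simmental. Of 16 monocyte and macrophage genes 8 were listed and all 8 were called lower in Angus, with a median of -2.499 and sums of 12010.0 to 31915 in Angus and 103041 to 279189 in Chinese Simmental. Of 20 B cell genes 16 were listed, 15 called higher in Angus and CD24 lower, with a median of 1.92 and sums of 273417 to 371690 in Angus and 94573 to 110883 in Chinese Simmental. From 10 platelet and red cell genes, the platelet gene GP9 was listed, at -1.605 ± 0.62 with overlapping breeds. Each of these lists includes only genes that the authors selected, and none of the listed markers of these other cells was at 0 in any library. The size of the NKG7 and GZMA differences was below the median of the neutrophil and monocyte lists.

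The genes most like NKG7 over the 6 libraries were sought among 1635 other named genes by the root mean square difference of log2(scaled count + 1), each gene centred on its own mean. The nearest were GADD45B, a stress-inducible growth arrest gene, at 0.213, ZFP36, a protein that destabilises cytokine mRNAs, at 0.220, and MYO1F, a myosin of leukocytes, at 0.221 log2 units. MSRB1 and RPL3L followed at 0.223 with identical counts under both names, so they are 1 measurement. For GZMA the nearest were MFSD6L at 0.283, the dehydrogenase gene DHRS7 at 0.296, the kinase gene CDK14 at 0.320, the receptor tyrosine kinase ligand GAS6 at 0.327 and EFHB at 0.350. No gene was on both lists. GZMA itself ranked 635 among the genes nearest to NKG7, at 0.627, and NKG7 ranked 253 among those nearest to GZMA. The distances show likeness of profile over 6 libraries that share a breed split, with no replication.

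In the annotation of the files, GZMA carried a trypsin domain and the term cytolysis, and NKG7 a PMP-22 and claudin family domain. Of the 4 rows annotated to cytolysis, GZMA, PRF1 and the lysozyme genes LYZ and LYZ2, all 4 were called lower in Angus. Of 15 rows annotated to serine-type endopeptidase activity, 13 were called lower in Angus and 1 higher, and 1 did not pass the count filter. Over all tested genes 75.0% were called lower in Angus and 24.9% higher, and nothing particular to either annotation is read from these counts. The only other listed row of the NKG7 family was EMP2, an epithelial membrane protein, at 35.1, 97.4 and 53.2 in Angus and 130.4, 168 and 494 in Chinese Simmental (-2.10 ± 0.67). Among the nearest 3 genes on each side in RefSeq assembly ARS-UCD2.0, NKG7 lies between CLDND2 and LIM2, and GZMA between GPX8 and gzmA, with GZMK beyond. Of these 12 neighbours 1 was listed, SIGLEC10, an inhibitory sialic acid receptor near NKG7, which was called higher in Angus at 1.605 on the log2 scale, opposite to NKG7.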

How the data were processed

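Total RNA (1 µg) of frozen longissimus dorsi was extracted with Trizol and made into Illumina mRNA libraries, per the labels' protocols. The submitters' processing notes name HISAT2 and the build ARS-UCD1.2. A counting tool, a strand setting and an annotation version were not found there. The authors deposited 1 table that gives, per the file headers, raw counts and FPKM for each library. It also gives the mean normalized signal of each breed, the log2 ratio of the breeds as the authors computed it, and a p-value with its adjusted value. Of its lines, 1 blank one was left out. Size factors solved from the deposited group means left relative residuals of at most 1.52e-09.

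All listed genes passing filterByExpr (minimum count 10) were fitted with edgeR 4.0.16 in R 4.3.3 (glmQLFit, glmQLFTest, breed as the only term, the authors' size factors as library sizes), and p-values were adjusted over them by the Benjamini-Hochberg method with a threshold of 0.05. These genes had all been selected by the authors, so the adjusted values are not a false discovery rate over all genes measured. Standard errors are the log2 fold change divided by the square root of F. Exact permutation tests used scipy 1.17.1. Alternatives were TMM, RLE and upper quartile factors, no filter, DESeq2 1.42.0, limma 3.58.1 on log2(FPKM + 1) and log2(FPKM + 0.1), a replicate block and leaving out each library. Tested on counts simulated for the breed comparison over 2019 genes, edgeR called 0.0549% of the unchanged genes, 32.3% of those changed by 1 log2 unit and 98% of those changed by 2. The simulation left 1821 genes unchanged and set the same spread between libraries for every gene. All listed genes were selected for a difference, so these rates may not carry over to them.

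Members and 12 gene lists were chosen with earlier results of these data known. Lists were matched by exact gene symbol, so rows under another name, such as LOC100848575 (annotated as CD94), are not in their counts. Named were both members, each listed member of a list with at most 6 listed (otherwise the 4 with the smallest p), and 5 like genes per member with a mean scaled count of at least 10; other genes are marked where named. Deviations from the breed means correlated at 0.27, 0.16 and 0.25 between libraries with the same replicate number 1 to 3. For the 6 mismatched pairs the correlations lay between -0.36 and 0.22. Angus 3 with Chinese Simmental 2, at 0.22, lay above the matched pair 2. With 3 libraries per breed these correlations depend on each other, so they cannot show a pairing, and the labels state none. Motifs in promoters and protein sequences were not analysed here. RefSeq names come from assembly ARS-UCD2.0, whose coordinates are not used.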

Additional observations from a re-analysis of the deposited data

How the results depend on the processing

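The direction of NKG7 and GZMA was the same under every alternative tried. NKG7 kept its call except with factors computed over the listed genes, at -0.25 (TMM), -0.24 (RLE) and -0.29 (upper quartile), where GZMA lost its call as well, at -0.084, -0.056 and -0.10. Factors over the listed genes centre the selected changes, so lost calls and changed signs under them, here and below, are shaped in advance by the selection. Leaving out each library in turn gave -2.02 to -1.21 for NKG7 and -1.65 to -0.87 for GZMA. With the replicate block, NKG7 was at -1.59 and GZMA at -1.35, and both kept their calls. So did the 53 other named genes that were followed across settings, while 7 of the 8 receptor genes were called. The paired test of the PRF1 ratios was added after seeing the data.

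Genes called higher in Chinese Simmental numbered 1492, and 256, 263 and 282 with TMM, RLE and upper quartile factors, where 503 each were called higher in Angus, against 495. Leaving out a library gave 1059 to 1423 called higher in Chinese Simmental and 291 (without Angus replicate 2) to 466 higher in Angus. The ratio of NKG7 to GZMA gave a difference of -0.69 to 0.32 when a library was left out, turning sign without Chinese Simmental replicate 3.

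Called members lower in Angus, an alternative added after seeing the data, became 0, 0 and 0 of 6 granule effectors and 0, 0 and 0 of 4 release genes with TMM, RLE and upper quartile factors, and 2, 1 and 2 of 8 receptor genes, of which limma on log2(FPKM + 1) called 4. Leaving out a library gave 3 to 6, 3 to 4 and 5 to 7.

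With TMM factors, list medians became -0.15 for granule effectors, 0.0027 for granule release, -0.71 for killer receptors, 2.55 for T cell, -1.55 for transcription factors, -0.53 for cytokines, 0.051 for granzyme inhibitors and substrates, 3.15 for B cell, -1.14 for monocyte, -2.58 for neutrophil, -0.21 for platelet and 3.48 for muscle genes.

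Single genes that changed sign with TMM, RLE and upper quartile factors were PRF1 (0.17, 0.19 and 0.14), CTSW (0.38, 0.40 and 0.34), SYTL2 (0.14, 0.15 and 0.092), LAMP2 (0.13, 0.12 and 0.088), HMGB2 (0.21, 0.22 and 0.17), MFSD6L (0.070, 0.085 and 0.040), DHRS7 (0.18, 0.21 and 0.15), EFHB (0.092, 0.12 and 0.066), LAG3 (0.15, 0.17 and 0.12) and LOC100848575 (0.054, 0.064 and 0.013). These factors moved the median of all log2 fold changes toward Angus by 1.36, 1.35 and 1.31. The other alternatives turned no other named gene that was followed across settings. NCR1, FCGR3A and KLRA1 were not followed as single genes, so they are absent from these lists.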
